A study of Mus musculus with 4 samples.

Results

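A set of 8 nuclear long noncoding RNAs was followed through single-nucleus RNA libraries of the mouse forebrain after stroke: Neat1, Malat1, Meg3, Rian, Mirg, Miat, Snhg11 and Pvt1. They were taken by gene symbol, 8 of the 46983 genes counted in every library, by a rule that uses no measured value. The libraries came from male C57Black/6 mice of 3 months, taken 1 day, 3 days or 7 days after the middle cerebral artery had been permanently blocked, with a control labelled sham. Each group was 1 library, made from the forebrain hemispheres of 3 mice pooled before nuclei were captured in droplets. A group therefore had no replicate, no value below has a spread between animals, and no p-value is given. The intervals printed are 95% intervals that cover counting error only.

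Most of these RNAs stay in the nucleus, which is why a library of nuclei counts them well. Neat1 is the RNA scaffold around which paraspeckles assemble, and its transcription is raised by many kinds of cell stress, while Malat1 is an abundant RNA of nuclear speckles, the bodies that store splicing factors. Miat, also called Gomafu, forms its own spots in the nuclei of neurons. Meg3, Rian and Mirg lie one after another in the imprinted Dlk1-Dio3 domain, are transcribed from the maternal chromosome, and carry microRNAs or small nucleolar RNAs in their introns and exons. Snhg11 is a host gene of small nucleolar RNAs, and Pvt1 lies next to the Myc oncogene.

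In GRCm38 coordinates, Neat1 (ENSMUSG00000092274.2) spans chr19:5824708-5845478 and Malat1 (ENSMUSG00000092341.2) chr19:5795690-5802672, both on the minus strand and both exonic over their whole length. On the plus strand of chromosome 12 follow Meg3 (ENSMUSG00000021268.17, chr12:109541001-109571726), Rian (ENSMUSG00000097451.9, chr12:109603940-109661716) and Mirg (ENSMUSG00000097391.8, chr12:109729764-109749460), of which 58.9%, 31.6% and 37.0% of the span is exonic. Miat (ENSMUSG00000097767.8) spans chr5:112213228-112229395 on the minus strand with 57.5% exonic. Snhg11 (ENSMUSG00000044349.15) spans chr2:158375638-158386145 on the plus strand with 81.1% exonic, and the annotation types it as protein coding. Pvt1 (ENSMUSG00000097039.8) is the longest, at chr15:62037986-62378096 on the plus strand, with only 2.06% of its 340.111 kb exonic. Counting took reads of exons and introns alike, so the nuclear signal of Pvt1 can come from a long intron. Other annotated genes overlap 6 of the 8 members. Those on the opposite strand are Gm37376 under Malat1 (453 bases), Gm26906 under Meg3 (3096 bases), Gm26953 under Miat (13935 bases) and the pseudogene H2afy3 under Pvt1 (1112 bases), and Gm26945 shares 2011 bases with Rian on the same strand. The strand setting of the counting is not given in the sources used here, so reads of these overlaps cannot be told apart, and the Miat counts are the most exposed to this.

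The microRNAs inside the Dlk1-Dio3 members are shown because they are the products these transcripts are best known for. RefSeq (GRCm38.p6) places 1 hairpin with 3 mature entries in Meg3, 3 hairpins with 6 in Rian and 14 hairpins with 26 in Mirg, and 13 small nucleolar RNAs lie in Rian and 2 in Snhg11. These small RNAs are not captured by a poly(A)-primed library and have no values here. A mature microRNA is given for Meg3 (chr12:109563710-109563731), for Rian (chr12:109618305-109618326) and for Mirg (chr12:109734145-109734166), then the only pair with a shared seed, GGUUGCC, which lies in Mirg at chr12:109735669-109735692 and chr12:109739132-109739152. All are on the plus strand, written 5′ to 3′, and capitals mark the seed, bases 2 to 8.
miR-770-5p: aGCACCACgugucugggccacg
miR-370-3p: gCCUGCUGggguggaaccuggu
miR-134-5p: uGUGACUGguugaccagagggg
miR-453: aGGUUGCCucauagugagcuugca
miR-496a-5p: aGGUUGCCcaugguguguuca

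Stretches of A inside a transcript are shown next, because the library kit primes on poly(A) and Malat1 ends without a poly(A) tail. The longest run of A in a GENCODE transcript was 16 bases in Meg3, 15 in Rian, 12 in Malat1, 9 in Snhg11 and in Pvt1, 7 in Neat1, 5 in Mirg and 4 in Miat, against a median of 5 over 141767 mouse transcripts. Runs as long as that of Malat1 were present in 3.53% of all transcripts, as long as that of Meg3 in 1.30% and as long as that of Neat1 in 20.7%. In the windows of 28 bases around the run, read along the transcript, capitals mark the A run, which in Malat1 covers positions 6674 to 6685 of a transcript of 6983 bases. Whether these runs served as priming sites was not tested.
Malat1: ctagctttAAAAAAAAAAAAgcaaaaga
Meg3: aagaccAAAAAAAAAAAAAAAAcaaaaa
Neat1: cctggactatAAAAAAAccttcatgagg

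Promoters are shown for the 3 members with the most unique molecular identifiers (UMIs, each standing for a captured RNA molecule), as RefSeq (GRCm38.p6) gives them, from 250 bases before to 50 bases after the gene start. They were searched on both strands for TGACGTCA, its shorter form TGACGTG, the TATA motif TATAAA, the AP-1 motif TGANTCA and the E-box motif CANNTG, and capitals mark matches of the first 3. The Meg3 promoter (chr12:109540746-109541045, plus strand) held TGACGTCA, the full cyclic AMP response element, from -57 to -50, a sequence present in 1.79% of 32851 mouse promoters. It also held TATAAA from -25 to -20, present in 13.6%, overlapping the same motif on the other strand from -29 to -24. A second Meg3 promoter entry (chr12:109545148-109545447), not printed here, held only CANNTG among these motifs, from -172 to -167. The Malat1 promoter (chr19:5802623-5802922, minus strand) held TGACGTG from -45 to -39, present in 2.01%, and a CANNTG match from 41 to 46. The Snhg11 promoter (chr2:158375463-158375762, plus strand) held neither of these elements nor TATAAA, only CANNTG at -105 to -100 and at -61 to -56, a motif found in 72.3% of promoters. TGANTCA, found in 7.81% of promoters, was in none of the 6 members with a promoter entry, which leaves Neat1 and Pvt1 without one. A match describes letters, not binding.
Meg3: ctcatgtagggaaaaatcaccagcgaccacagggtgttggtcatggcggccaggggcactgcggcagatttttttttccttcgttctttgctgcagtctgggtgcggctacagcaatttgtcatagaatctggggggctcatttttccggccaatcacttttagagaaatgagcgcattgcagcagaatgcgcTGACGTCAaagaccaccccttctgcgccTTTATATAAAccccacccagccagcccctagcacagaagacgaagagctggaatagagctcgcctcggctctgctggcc
Malat1: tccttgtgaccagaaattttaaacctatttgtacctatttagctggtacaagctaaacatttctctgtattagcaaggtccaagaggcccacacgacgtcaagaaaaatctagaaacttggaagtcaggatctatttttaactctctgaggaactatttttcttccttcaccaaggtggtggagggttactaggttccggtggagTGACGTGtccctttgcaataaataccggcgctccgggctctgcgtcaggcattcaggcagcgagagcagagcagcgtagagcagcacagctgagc
Snhg11: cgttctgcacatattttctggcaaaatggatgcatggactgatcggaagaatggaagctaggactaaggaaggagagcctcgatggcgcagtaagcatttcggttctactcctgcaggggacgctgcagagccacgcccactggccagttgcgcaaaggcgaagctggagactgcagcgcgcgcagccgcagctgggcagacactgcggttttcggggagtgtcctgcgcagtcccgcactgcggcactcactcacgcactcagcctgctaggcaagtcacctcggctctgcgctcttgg

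The libraries held 23285489 to 42963698 UMIs each. After calling and removal of doublets, 2118 nuclei of the sham control, 1018 of day 1, 3097 of day 3 and 1571 of day 7 remained, 7804 in all, with a median of 6353.5, 10933, 5412 and 6995 UMIs. Day 1 had the fewest and deepest nuclei. Nuclei were clustered without the listed genes, and 9 classes held at least 20 nuclei in every library: 5 neuronal (glutamatergic, subcortical glutamatergic, GABAergic interneuron, striatal projection neuron, subcortical GABAergic or peptidergic) and 4 glial (astrocyte, oligodendrocyte, oligodendrocyte precursor, microglia). Each name rests on RNA markers alone and reads as "like" throughout, and orders of classes cover these 9. Of a class's own markers, from 13 of 17 (glutamatergic) and 11 of 14 (subcortical GABAergic or peptidergic) to 20 of 20 (microglia) were highest in that class. Before the results, 3 points on the libraries apply. Only 9 cell barcodes occurred among the nuclei of more than 1 library. The study's own count of nuclei per time point follows the deposited files only if day 3 and day 7 are exchanged, and the deposited labels are kept here. If the labels were exchanged, every day 3 value below would be a day 7 value and the reverse. Which labels hold was not tested. The protocol text names cortex for the control where the design names forebrain hemispheres, while 355 nuclei of the sham library were striatal-projection-neuron-like. That text also calls the control tissue intact, where the sample label reads sham control. Sham here follows the label, and whether the control mice had surgery cannot be told from these sources.

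The 8 members together held 7.80%, 9.05%, 7.07% and 9.02% of all nuclear UMIs from the sham control to day 7. Most of this was Malat1, with 4421007 UMIs, followed by Meg3 with 428934 and Snhg11 with 268922. Rian had 33207, Miat 10021, Mirg 7910, Pvt1 6922 and Neat1 5822. Per kilobase of gene span the order changed, from 633110 UMIs for Malat1 through 25592 for Snhg11, 13960 for Meg3, 619.8 for Miat, 574.7 for Rian, 401.6 for Mirg and 280.3 for Neat1 to 20.4 for Pvt1. Neat1 was thus among the scarcest members and Malat1 the most abundant on either scale. All levels that follow are in CPM, a member's UMIs scaled to the total UMIs of the same class and library, which compares classes and libraries for 1 gene and not genes with each other.

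Among the 9 classes Neat1 was higher in glia than in most neurons, and highest in oligodendrocyte-like nuclei. There the sham library held 868 CPM (Poisson interval 804 to 936), day 1 held 1334 (1239 to 1434), day 3 held 881 (823 to 942) and day 7 held 1237 (1155 to 1322). This range did not overlap that of any other of the 9 classes. Outside them, the few fibroblast-like nuclei (14, 3, 28 and 16) held 828, 2514, 1094 and 1003 CPM. This was above the oligodendrocyte-like level at days 1 and 3 and below it in the sham control and at day 7. Microglia-like nuclei held 156, 417, 437 and 251 CPM in the same order, astrocyte-like nuclei 185, 549, 247 and 317, and oligodendrocyte-precursor-like nuclei 31.1, 342, 118 and 85.0. These 3 classes overlapped in range. In neurons the level was between 2.06 and 63.6 CPM, and the top neuronal value was that of striatal-projection-neuron-like nuclei at day 1. Over the 20 neuronal and 16 glial values, the neuronal median was 0.0383 of the glial one, with overlapping ranges.

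**Figure D1:**
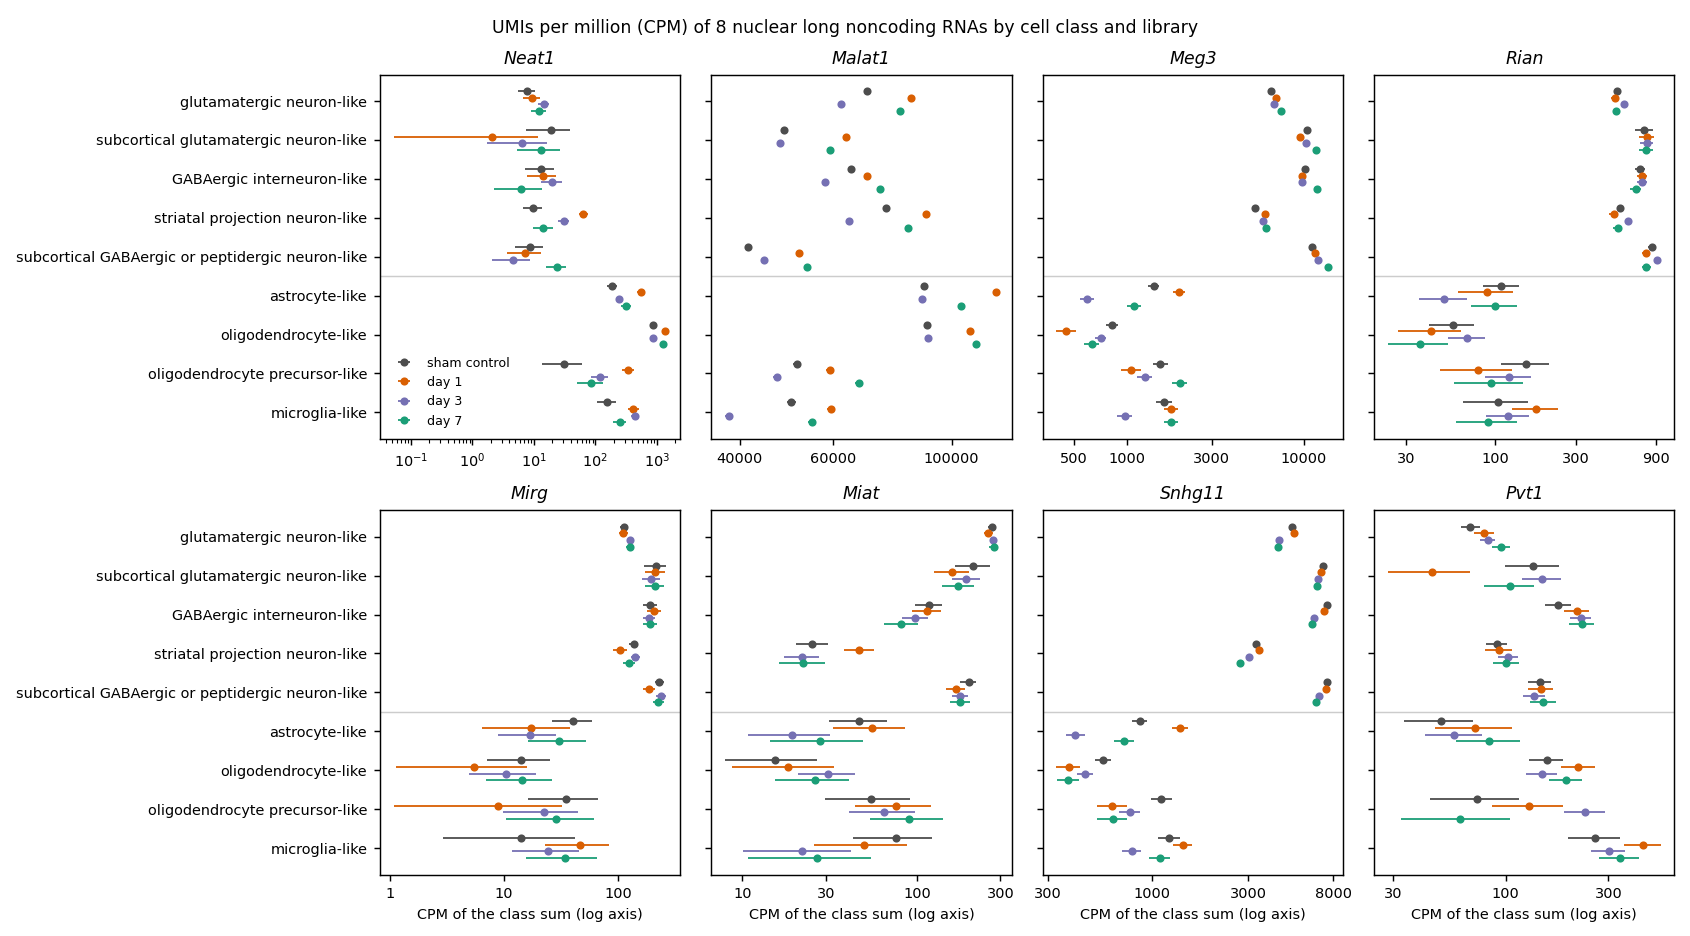
Level of each member in CPM (log axis) in 9 classes, with 1 point per library (sham control grey, day 1 orange, day 3 purple, day 7 green), Poisson 95% bars and a line between the 5 neuronal and 4 glial classes. Neat1 sits at 868 to 1334 CPM in oligodendrocyte-like nuclei and at 2.06 to 63.6 CPM in neurons, while Meg3, Rian, Mirg and Snhg11 run the other way.

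The share of nuclei with a Neat1 UMI was likewise highest in oligodendrocyte-like nuclei among the 9 classes. In oligodendrocyte-like nuclei it was 74.5%, 86.2%, 69.1% and 79.0% from the sham control to day 7, and after every nucleus was thinned to 1000 UMIs it was 55.8% (Clopper-Pearson interval 50.1 to 61.3), 67.3% (59.4 to 74.5), 50.7% (45.9 to 55.5) and 58.7% (52.4 to 64.9). Thinned astrocyte-like nuclei had 16.8%, 30.9%, 15.3% and 25.7%, and thinned microglia-like nuclei 8.99%, 20.5%, 18.3% and 18.1%. Glutamatergic-neuron-like nuclei, where Neat1 is scarce, had 4.99%, 9.48%, 7.23% and 8.08% before thinning and 0.832%, 1.29%, 0.803% and 0.898% after it. The glial shares stood above this at equal depth. If free RNA entered every droplet equally, it would give 3.09 to 9.50 CPM of Neat1 in the glial classes and 1.23 to 2.05 CPM in glutamatergic-neuron-like nuclei, below every level measured there.

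**Figure D2:**
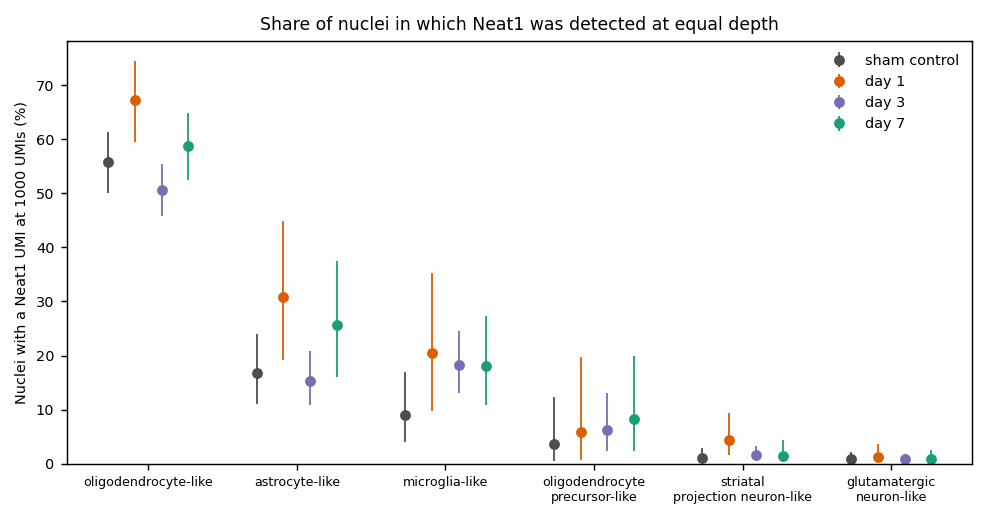
Share of nuclei with a Neat1 UMI (percent) in each class and library after thinning to 1000 UMIs, with Clopper-Pearson 95% bars. Oligodendrocyte-like nuclei lie at 50.7 to 67.3% and glutamatergic-neuron-like nuclei at 0.803 to 1.29%.

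After occlusion, Neat1 was above sham in every class and day that had at least 50 UMIs to compare, which was 6 classes at day 1, 6 at day 3 and 5 at day 7, and with trimmed-mean or median-of-ratios scaling too. A low sum passes that limit more easily when a later day is high, and in the 10 comparisons under it, in interneurons, both subcortical classes and precursors, the ratios went both ways, from 0.110 in subcortical glutamatergic neurons of day 1 (1 UMI against 7) to 2.73 in precursors of day 7. In 12 of the 17 comparisons read the ratio reached 1.5, where 6.15%, 4.51% and 4.35% of all gene and class pairs did at days 1, 3 and 7. Of these 12, 7 stayed past 1.5-fold under all 16 alternative settings, and oligodendrocytes at day 1, glutamatergic neurons at days 3 and 7, and astrocytes and microglia at day 7 did not. At day 1 the ratio was 10.97 (interval 5.30 to 26.3) in oligodendrocyte-precursor-like nuclei, from 8 to 77 UMIs, and 6.65 (4.52 to 10.1) in striatal-projection-neuron-like nuclei, from 33 to 133 UMIs. It was 2.97 (2.34 to 3.78) in astrocyte-like, 2.67 (1.79 to 4.09) in microglia-like and 1.54 (1.38 to 1.71) in oligodendrocyte-like nuclei. At day 3 the ratio was 3.79 (1.76 to 9.34) in precursors, 3.20 (2.14 to 4.88) in striatal projection neurons, 2.80 (1.93 to 4.20) in microglia and 1.87 (1.30 to 2.72) in glutamatergic neurons. By day 7 it was 1.71 (1.33 to 2.21) in astrocytes, 1.61 (1.05 to 2.53) in microglia and 1.58 (1.03 to 2.42) in glutamatergic neurons. Over all nuclei the level ran 65.6, 117, 86.5 and 103 CPM from the sham control to day 7.

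**Figure D3:**
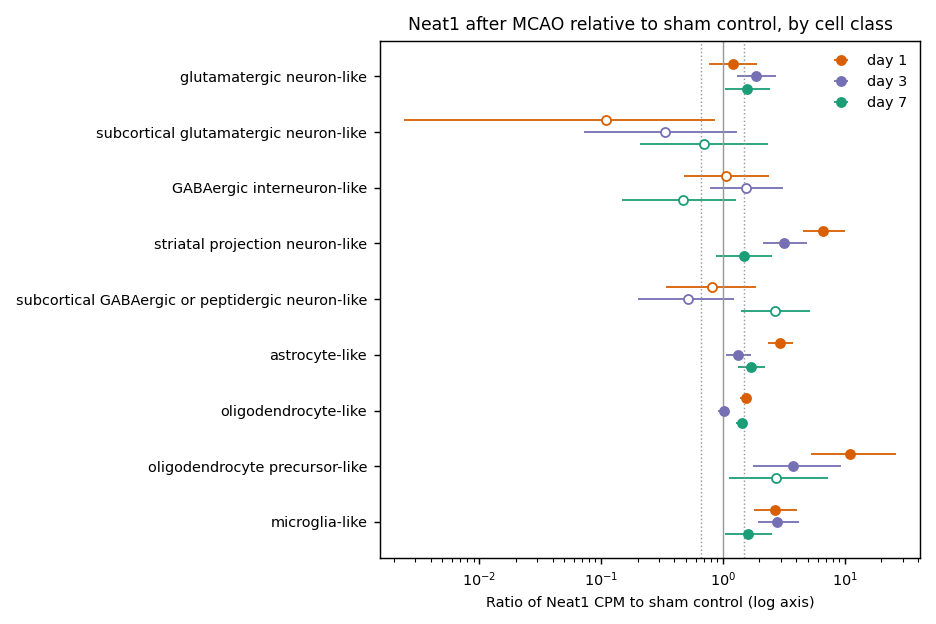
Neat1 ratio to sham control (log axis) by class and day with 95% counting intervals, dotted lines at 1.5-fold either way and open circles where fewer than 50 UMIs were compared. The day 1 points of precursor-like (10.97) and striatal-projection-neuron-like (6.65) nuclei lie highest.

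Few nuclei carried much of the day 1 signal. Nuclei with at least 10 Neat1 UMIs, a limit chosen after the values were seen, were 6 of 2118 in the sham control (0.283%, interval 0.104 to 0.616), 34 of 1018 at day 1 (3.34%, 2.32 to 4.64), 20 of 3097 at day 3 (0.646%, 0.395 to 0.996) and 28 of 1571 at day 7 (1.78%, 1.19 to 2.57). They held 8.47%, 46.3%, 16.0% and 29.9% of the Neat1 UMIs. Day 1 was also the deepest library, so the count was repeated among nuclei of 2000 to 10000 UMIs, a band likewise chosen afterwards, whose medians were 5489.5, 4902, 5107 and 5103.5 UMIs. There the counts were 2 of 1252 (0.160%), 25 of 440 (5.68%, 3.71 to 8.27), 13 of 1899 (0.685%) and 23 of 906 (2.54%, 1.62 to 3.78). Within this band days 1 and 7 stayed above sham and day 3. The band pools all classes, and class depth differed between libraries. From sham to day 1 the median rose from 2023 to 3081 UMIs in oligodendrocyte-like nuclei. In glutamatergic-neuron-like nuclei it rose from 10395 to 16315. The mix of classes in the band can therefore differ between libraries, and its part in these shares was not tested. The fullest nuclei of day 1 spread over classes, with 61 Neat1 UMIs in a fibroblast-like nucleus, 60 in a striatal-projection-neuron-like nucleus, 54 in an ependymal-cell-like nucleus, 43 in a precursor-like nucleus and 41 in an astrocyte-like nucleus. The highest sham nucleus had 23.

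Several Neat1 ratios were smaller without the fullest nuclei. In precursor-like nuclei of day 1, 5 of 34 nuclei had a Neat1 UMI and 1 nucleus held 55.8% of them. The log2 ratio there was 3.46, 2.72 without that nucleus, 0.84 without the 3 fullest nuclei and 2.04 after thinning. In striatal-projection-neuron-like nuclei of day 1, 1 nucleus held 45.1% of the UMIs, and the log2 ratio of 2.73 was 1.87 without the 3 fullest nuclei and 1.70 with libraries merged rather than integrated. The astrocyte-like and microglia-like ratios of day 1 stayed past 1.5-fold under all 16 alternative settings. In glutamatergic-neuron-like nuclei of day 3 the log2 ratio was 0.90, and -0.050 after thinning.

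Markers of other classes were read beside these ratios. The summed oligodendrocyte markers (18 genes) in microglia-like nuclei were 3593, 2974, 2700 and 3381 CPM from sham to day 7, with Trf at 0 throughout. In precursor-like nuclei they were 1596, 2601, 2995 and 2422 CPM, higher on each day than in the sham control, and 15, 17, 16 and 17 of the 18 were detected. In astrocyte-like nuclei they were 1631, 977, 1957 and 2120 CPM, lowest on the day when Neat1 was highest. In striatal-projection-neuron-like nuclei the same markers were 536, 709, 761 and 856 CPM and the 20 microglia markers 127, 246, 226 and 191 CPM. The part of these markers in the Neat1 ratios was not tested. The microglia-like class joined a large cluster with Neat1 at 111, 288, 399.7 and 129 CPM and a small one of 8, 7, 9 and 6 nuclei, next closest to oligodendrocytes, with 414, 1094, 921 and 1213 CPM. Without the small cluster the day 7 log2 ratio of microglia-like nuclei was 0.22 instead of 0.69, a setting added after the data were seen.

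Malat1 had a UMI in every nucleus of every library. Its median share of a nucleus's UMIs was 6.57%, 7.59%, 5.62% and 7.55% from the sham control to day 7. The level over all nuclei was 66207, 78000, 59364 and 78113 CPM. Classes ranged from 38145 CPM in microglia-like nuclei at day 3 to 120934 CPM in astrocyte-like nuclei at day 1, and each class overlapped the next in range. Oligodendrocyte-like nuclei held 90028, 108156, 90417 and 110865 CPM and subcortical GABAergic or peptidergic neurons, with the lowest median over the libraries, 41488, 51617, 44392 and 53486 CPM.

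Malat1 was above sham in 9 of 9 classes at day 1, by 1.07 to 1.37 times, and in 9 of 9 at day 7, by 1.09 to 1.31 times, also with either other scaling. At day 3 it was above sham in 2 of 9 classes, with ratios from 0.763 to 1.07, and in 4 of 9 with either other scaling. No class reached 1.5-fold on any day. The classes of a day share 1 library and 1 sham library, so a count of classes is not a count of separate results. This holds for such counts of the other members too. The share of all genes on 1 side of sham in every class was not computed. Free RNA moved with it: droplets without a nucleus held 64567, 77712, 61049 and 74955 CPM, so that the ratio of nuclei to free RNA was 1.03, 1.00, 0.972 and 1.04. Whether the free RNA sets the nuclear differences between libraries was not tested.

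Miat was a neuronal RNA with a strong split among neurons. Glutamatergic-neuron-like nuclei held 269, 256, 274 and 275 CPM from sham to day 7, above every other class without overlap, while striatal-projection-neuron-like nuclei held 25.2, 46.8, 21.9 and 22.1 CPM. Subcortical glutamatergic neurons (209, 159, 192 and 172 CPM) and subcortical GABAergic or peptidergic neurons (197, 167, 177 and 177 CPM) lay between, and interneurons lower, at 117, 114, 97.9 and 81.5 CPM. In glia the range was 15.4 to 89.7 CPM, so neurons and glia overlapped, with a ratio of medians of 4.36. The lowest glial value, in oligodendrocyte-like nuclei of the sham library, compares with 13.1 CPM from equal free RNA. Among comparisons of at least 50 UMIs, which left out all glial classes, 1 ratio reached 1.5-fold, striatal projection neurons at day 1 at 1.86 (1.38 to 2.51), from 87 to 98 UMIs in a smaller library, and it stayed past 1.5-fold under all 16 alternatives. The level there remained well below that of every other neuronal class. Under that limit the glial Miat ratios went both ways, from 0.291 (0.113 to 0.699) in microglia at day 3, 9 UMIs against 16, to 2.02 (1.00 to 4.33) in oligodendrocytes at day 3, 30 UMIs against 12.

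Meg3 was highest in subcortical GABAergic or peptidergic neurons, with 11127, 11584, 11937 and 13718 CPM, followed by subcortical glutamatergic neurons at 9447 to 11736 and interneurons at 9686 to 11819 CPM, which overlapped. Glutamatergic neurons held 6488, 6926, 6810 and 7441 CPM and striatal projection neurons 5302, 6035, 5889 and 6092 CPM, each apart from its neighbours. Glia held 453 to 1983 CPM, and the neuronal median was 8.26 times the glial one, with no overlap. Rian (503 to 913 CPM in neurons, 36.0 to 175 in glia, 7.88 times) and Mirg (104 to 237 against 5.47 to 45.8 CPM, 9.42 times) had the same split, and the lowest median over the 4 libraries was that of oligodendrocyte-like nuclei for all 3. Part of these glial levels may be background, which was not tested. If free RNA entered every droplet equally, it would give 367, 379, 516 and 439 CPM of the 817, 453, 707 and 629 CPM of Meg3 in oligodendrocyte-like nuclei. It would give 31.6, 26.2, 42.7 and 27.9 of their 56.4, 42.0, 68.3 and 36.0 CPM of Rian, and at day 1 it would give 5.78 CPM of Mirg, where 5.47 were counted. The folds between neurons and glia are not corrected for this, and the lowest glial levels are not read as expression. Rian was 845, 782, 913 and 787 CPM in subcortical GABAergic or peptidergic neurons, the class with its highest median, and 526, 510, 578 and 521 CPM in glutamatergic neurons. Mirg was 229, 185, 237 and 224 CPM in the former and 112, 111, 126 and 127 CPM in the latter. For both, striatal projection neurons overlapped glutamatergic neurons in range, whereas Meg3 separated them. Across 36 class and library profiles, which share libraries and classes, the r of log2(CPM + 10) was 0.980 between Meg3 and Rian, 0.972 between Meg3 and Mirg and 0.980 between Rian and Mirg. It was -0.921 between Neat1 and Meg3.

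Snhg11, from another chromosome, had the same neuronal pattern. Interneurons held 7490, 7214, 6396 and 6275 CPM, subcortical GABAergic or peptidergic neurons 7424, 7404, 6760 and 6577, and subcortical glutamatergic neurons 7119, 6956, 6716 and 6676, all 3 overlapping. Glutamatergic neurons followed at 4954, 5067, 4291 and 4239 CPM and striatal projection neurons at 3273, 3409, 3044 and 2728 CPM. Glia held 380 to 1416 CPM, the neuronal median was 8.67 times the glial one, and r with Meg3 was 0.986 over the 36 profiles. In oligodendrocyte-like nuclei equal free RNA would give 304, 322, 374 and 295 of the 567, 381, 462 and 380 CPM of Snhg11.

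In neurons none of the 60 comparisons of Meg3, Rian, Mirg and Snhg11 with sham reached 1.5-fold. Of all neuronal pairs of gene and class, 5.36%, 3.15% and 3.62% were higher by that fold at days 1, 3 and 7, and 4.21%, 4.52% and 6.45% lower. Snhg11 was below sham in 9 of 9 classes at day 3 (ratios 0.477 to 0.943) and in 9 of 9 at day 7 (0.570 to 0.938), as with median-of-ratios scaling. With trimmed-mean scaling it was 8 of 9 on both days, with subcortical glutamatergic neurons at 0.02 and 0.01 on the log2 scale. Over all nuclei Snhg11 was 4450, 4640, 3901 and 3871 CPM, whereas Meg3 was 6350, 6831, 6457 and 7273 CPM. Rian was 518, 504, 543 and 486 CPM and Mirg 125, 117, 126 and 123 CPM over all nuclei.

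Of the 30 ratios past 1.5-fold over all members and classes, the same RNAs in glia gave 13, 11 of them lower, from few molecules. Of all members, 3 of 23 glial pairs were lower at day 1, 5 of 24 at day 3 and 3 of 21 at day 7, against 11.1%, 7.39% and 9.38% of all glial pairs. A median glial nucleus held 1 Snhg11 UMI. In astrocyte-like nuclei of day 3, Meg3 was 591 against 1411 CPM (ratio 0.419, 0.374 to 0.470), Snhg11 413 against 865 (0.477, 0.414 to 0.549) and Rian 50.1 against 109 (0.458, 0.301 to 0.689). Only the Rian ratio kept 1.5-fold under every alternative, and Meg3 lost it with log2 ratios of -0.48 as a mean over nuclei instead of -1.25. Equal free RNA would give 320 CPM of Meg3, 232 of Snhg11 and 26.5 of Rian in these nuclei at day 3, and 205, 170 and 17.7 CPM in the sham library. In microglia-like nuclei of day 3, Meg3 was 0.598 (0.517 to 0.693) and Snhg11 0.652 (0.552 to 0.771) of sham. After thinning the Snhg11 log2 ratio there was -0.02 instead of -0.62. In oligodendrocyte-like nuclei of day 1, Meg3 was 0.554 (0.476 to 0.642) of sham, and without the 3 fullest nuclei its log2 ratio was -0.01 instead of -0.85. With equal free RNA subtracted it was -2.61, since little was left above that background at day 1, so its size is not read.

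The remaining glial ratios went both ways. Snhg11 was 1.58 (1.40 to 1.80) in astrocytes at day 1, and in precursors 0.568 (0.461 to 0.697) at day 1 and 0.570 (0.461 to 0.703) at day 7. Rian was 1.68 (0.983 to 2.96) in microglia at day 1, 0.526 (0.283 to 0.942) and 0.622 (0.344 to 1.09) in precursors at days 1 and 7, and 0.638 (0.374 to 1.07) in oligodendrocytes at day 7. All 7 of these ratios changed direction under at least 1 alternative, with the values given among the limits. A few nuclei held a large share of the signal in several sums. The 5 fullest held 49.6%, 86.1%, 29.3% and 78.7% of the Meg3 UMIs from sham to day 7 in astrocyte-like nuclei, 60.9%, 86.1%, 41.6% and 65.2% in microglia-like nuclei, 68.4%, 63.4%, 55.5% and 75.2% in precursor-like nuclei and 55.6%, 13.3%, 16.8% and 28.1% in oligodendrocyte-like nuclei. In astrocyte-like nuclei 4, 4, 3 and 5 of them were also among the 5 fullest for Snhg11. The 16 striatal projection neuron markers were at 1152, 749, 612 and 719 CPM in astrocyte-like and 1152, 921, 696 and 472 CPM in microglia-like nuclei, lower than sham on all 3 days in both. Their part in the glial ratios was not tested.

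Pvt1 overlapped between neurons and glia, with a neuronal median 0.790 of the glial one. It was highest in microglia-like nuclei, with 260, 433, 300.3 and 339 CPM from sham to day 7, above interneurons (175, 214, 223 and 226 CPM) without overlap. Oligodendrocyte-like nuclei held 155, 217, 147 and 190 CPM, glutamatergic neurons 68.6, 79.5, 82.6 and 95.2 CPM and astrocyte-like nuclei, with the lowest median over the libraries, 49.9, 72.3, 57.9 and 83.8 CPM. Its ratio was 3.15 (1.90 to 5.50) in precursor-like nuclei at day 3, from 19 to 83 UMIs and so over the limit of 50 only through day 3, 1.67 (1.19 to 2.36) in microglia-like nuclei at day 1 and 1.68 (1.01 to 2.81) in astrocyte-like nuclei at day 7. In subcortical glutamatergic neurons of day 1 it was 0.338 (0.195 to 0.569), from 50 to 22 UMIs in 36 and 24 nuclei. All but the astrocyte value stayed past 1.5-fold under all 16 alternatives. Pvt1 was above sham in 7 of the 8 classes read at day 1, 7 of 9 at day 3 and 7 of 8 at day 7. Precursors were under the limit on the other days, with 29 UMIs and a ratio of 1.74 (0.943 to 3.28) at day 1 and 13 UMIs and 0.830 (0.377 to 1.77) at day 7, and are left out of these counts. With either other scaling these counts were 6 of 8, 7 of 9 and 7 of 8.

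**Figure D4:**
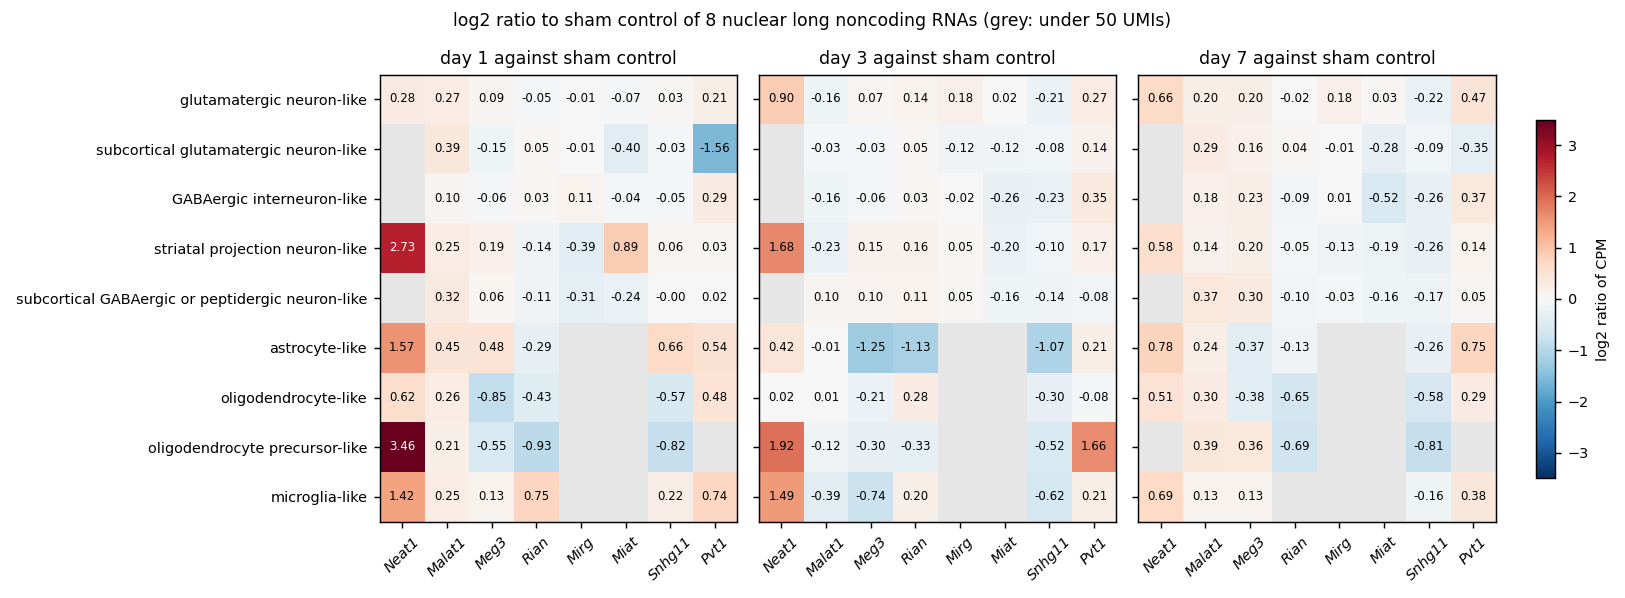
Log2 ratio to sham control of each member (columns) in each class (lines), in a panel per day, with grey where fewer than 50 UMIs were compared. Neat1 is above 0 wherever it is read, Malat1 is above 0 in all 9 classes at days 1 and 7, and the lower values of Meg3, Rian and Snhg11 sit among the glial classes.

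The members were then read against all genes measured in the same classes, each day against the same sham library. Of 60 member and class pairs read at day 1, 9 were at least 1.5-fold higher and 4 at least 1.5-fold lower, where 6.15% and 5.92% of all pairs were. Among the 23 glial pairs 7 were higher, against 8.58% of all glial pairs. At day 3, 5 of 61 were higher and 5 lower, against 4.51% and 5.35%, with 3 of 24 glial pairs higher against 7.87%. At day 7, 4 of 58 were higher and 3 lower, against 4.35% and 7.2%, with 3 of 21 glial pairs higher against 6.44%. Neat1 made 5 of the 9 higher pairs at day 1, 4 of 5 at day 3 and 3 of 4 at day 7. Among the higher pairs, some passed the limit on UMIs only through a high count on the later day. In precursors these were Neat1 at day 1 (77 UMIs against 8 in sham) and at day 3 (42 against 8). Pvt1 in precursors at day 3 (83 against 19) was another. Neat1 in precursors at day 7 (18 against 8) was not read. All genes were held to the same limit. The median log2 ratio of the members was 0.06, -0.02 and 0.04, against 0.00, -0.03 and -0.05 for all genes.

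Nuclei were also set against droplets of 100 to 1000 UMIs, which hold free RNA, to see which members stay with the nucleus. In the sham control 5 of 8 members were at least 1.5-fold higher in nuclei, against 27.6% of all genes, at day 1 6 of 8 against 30.7%, at day 3 6 of 8 against 24.8% and at day 7 5 of 8 against 23.2%. Mirg had the ratios 2.98, 2.54, 2.74 and 2.25 from sham to day 7, Meg3 2.19, 2.26, 2.07 and 1.93, Rian 2.07, 2.42, 2.10 and 2.04, Pvt1 2.01, 2.59, 2.00 and 1.98, and Snhg11 1.85, 1.81, 1.72 and 1.53. These 5 passed in every library. Against emptier droplets of 11 to 100 UMIs, the members that passed were 3, 2, 4 and 4 in the same order, and Mirg in the sham control was below free RNA, at -0.79 on the log2 scale. Those droplets held only 32412, 13358, 26614 and 31422 UMIs in all, so these values rest on few molecules. Of 32 such ratios 28 had a value, and a ratio without a value was not counted as passing. Against the droplets of 100 to 1000 UMIs, Neat1 passed only at day 1 and day 3, with 1.42, 2.16, 1.60 and 1.26. Its free level was highest at day 7, at 81.3 CPM against 46.2 in the sham control. Miat, with 1.46, 1.40, 1.47 and 1.19, and Malat1, at about the same level in both, did not pass. All classes were summed here, so this ratio does not measure retention within 1 cell type.

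The genes most like each member over the 36 profiles, by r of log2(CPM + 10) among 14574 genes, were described without a test. Other members were left out of this ranking. For Neat1 they were Il33, an alarmin cytokine kept in the nucleus (0.955), Ppfibp2 (0.940) and Nde1 (0.936). Outside the members, the nearest to Meg3 and Rian was Snhg14, the imprinted transcript antisense to Ube3a (0.983 and 0.984), which was also nearest to Mirg (0.966). Between members, r was higher than this for Meg3 with Snhg11 (0.986), and for Mirg with Rian (0.980) and with Meg3 (0.972). Snhg11 was nearest to Ube3a and Snhg14 (both 0.987), and Cacna1b, a presynaptic calcium channel, followed for Meg3, Rian and Mirg (0.975, 0.976 and 0.960). Miat was nearest to Fhod3 (0.971), Malat1 to Gm20417 (0.906) and to Gm37376 (0.846), which overlaps it on the opposite strand, and Pvt1 to Zfyve19 (0.807). Snhg11 and the Dlk1-Dio3 members thus had nearer companions than Pvt1.

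Genes on lists of related RNAs and proteins were read by the same rule, beside the background shares already given. Of 39 other long noncoding RNAs in the files, 9 of 155 pairs were higher and 10 lower at day 1, 5 and 14 of 161 at day 3, and 7 and 15 of 151 at day 7. Rmst, a noncoding RNA of neural progenitors, had ratios of 4.68 (3.28 to 6.79), 1.52 and 0.947 in striatal projection neurons and 3.38, 1.97 and 1.65 in interneurons. Sox2ot, which overlaps Sox2, was 559.8 CPM in astrocyte-like nuclei of the sham control and 318, 242 and 277 CPM after occlusion, with ratios of 0.568, 0.432 and 0.495. Kcnq1ot1, an imprinted antisense RNA, was 2.85, 1.44 and 1.59 in microglia-like nuclei. For 16 genes of paraspeckle proteins, the partners of Neat1, 2 of 114 pairs were higher and 4 lower at day 1, 2 and 6 of 119 at day 3, and 1 and 1 of 112 at day 7, with median log2 ratios of 0.01, -0.03 and -0.12. Ewsr1, an RNA-binding protein of this list, was 1.72, 1.80 and 1.38 in microglia-like nuclei, and Rbm3, a cold-induced RNA-binding protein, 0.550, 0.525 and 0.914 in striatal projection neurons. Of 15 speckle protein genes, 3 of 128 pairs were higher and 2 lower at day 1, 1 and 1 of 132 at day 3, and 7 and 10 of 130 at day 7, among them Clk4, a kinase of splicing factors, at 1.33, 1.62 and 1.69 in subcortical glutamatergic neurons. Of the coding genes of the Dlk1-Dio3 domain, 8 pairs were read each day and 1 was lower, at day 3. Of genes beside Pvt1 and Neat1, 2 of 7 pairs were lower at day 1, none of 8 at day 3 and 1 of 7 at day 7, with Frmd8 at 0.602, 0.880 and 0.402 in glutamatergic neurons.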

How the data were processed

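Single-nucleus droplet libraries of 4 groups, 1 library each, were analysed. The deposited values are counts of UMIs per gene and barcode, which the authors made with STAR 2.7.3a, as named in the submitters' processing notes, counting reads over whole genes (exons and introns) of the GENCODE vM8 annotation of GRCm38, with UMIs merged at 1 mismatch and all barcodes kept. Strand of counting is not given in the sources used here. Positions came from GENCODE vM21 (same build), sequences from RefSeq GRCm38.p6 and GENCODE transcripts.

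From these counts, nuclei were called with a re-implementation of emptyDrops (lower bound 1000 UMIs, 10000 draws, FDR 0.001), and 146 of 7950 were removed as doublets with Scrublet at 0.8% per 1000 nuclei (scanpy 1.11.5). Nuclei were normalised with sctransform 0.4.2, integrated and clustered in Seurat 5.3.0 (30 components, resolution 0.8) with the listed genes left out of the features, and clusters were named by markers as X-like classes. UMIs were summed per library and class. No test over samples was possible with 1 library per group. Ratios to the sham control carry exact conditional binomial intervals, levels exact Poisson intervals and shares Clopper-Pearson intervals (95%), all for counting error only. A pair of gene and class was read with at least 50 UMIs over both sums and called at 1.5-fold. Per-class code was tested on simulated data. Named beside the 8 members were the 3 genes most like each, and of every other list up to 5 genes past 1.5-fold in 1 class and direction on at least 2 of the 3 days, of which the text gives examples. Members and lists were chosen with earlier results of these data known. Alternatives changed depth, scaling (edgeR 4.0.16), free RNA, calling, doublets, clustering, thresholds and the fullest nuclei.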

Additional observations from a re-analysis of the deposited data

Results flagged for a closer look

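Opposite directions on day 1 were seen between classes, where each class of a library came from the same pooled tissue and the difference between classes was not tested. Snhg11 was 1.58 times its sham level in astrocyte-like nuclei and 0.568 times in oligodendrocyte-precursor-like nuclei. Each of these directions turned under an alternative, to a log2 ratio of -0.44 in astrocyte-like nuclei without the 3 fullest nuclei and of 0.79 in precursor-like nuclei with stronger doublet removal. Pvt1 was 1.67 times its sham level in microglia-like nuclei and 0.338 times in subcortical-glutamatergic-neuron-like nuclei.

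Nuclei outside the 9 compared classes also carried signal above the sham control. Neat1 was 3.04 times its sham level in fibroblast-like nuclei of day 1 (2.07 to 4.50, 3 nuclei against 14), with 79.2% of the UMIs in 1 nucleus, and 6.35 times in ependymal-cell-like nuclei of day 1 (3.53 to 12.3), with 84.4% in 1 nucleus. In nuclei of unnamed clusters Neat1 was 3.16 times its sham level at day 1, 3.03 at day 3 and 3.16 at day 7, where 1 nucleus held 28 of the 56 UMIs of day 1, 18.1% of those of day 3 and 35.4% of those of day 7. Malat1 was 1.70 times its sham level in mural-cell-like nuclei of day 7, from 2 nuclei, and lower in fibroblast-like nuclei of day 3 (0.619, 0.598 to 0.641, 28 nuclei against 14) and endothelial-cell-like nuclei of day 1 (0.493, 0.456 to 0.533, 6 nuclei against 40). Meg3 was higher at day 3 in endothelial-cell-like (2.64, interval 2.02 to 3.50, with 25.6% of the UMIs in 1 nucleus), mural-cell-like (1.91, with 52.8%) and choroid-plexus-cell-like nuclei (2.44, with 75.8%). It was lower on that day in ependymal-cell-like (0.277, 0.205 to 0.369, from 1843 to 511 CPM) and fibroblast-like nuclei (0.331, 0.217 to 0.501, from 1053 to 348 CPM), where 1 nucleus held 56.8% and 64.3% of the sham UMIs. Snhg11 was 4.00 times its sham level in endothelial-cell-like nuclei of day 3 (2.73 to 6.07), with 51.1% in 1 nucleus. It was lower in fibroblast-like nuclei, at 0.457, 0.436 and 0.487 from day 1 to day 7, and in ependymal-cell-like nuclei, at 0.354, 0.175 and 0.207. These rest on few nuclei, from sham to day 7 14, 3, 28 and 16 fibroblast-like and 17, 7, 20 and 7 ependymal-cell-like.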

How the results depend on the processing

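No paired analysis was possible because each group holds 1 library. Of the 30 ratios past 1.5-fold, 12 stayed past it under all 16 alternatives, and 18 lost it under at least 1. Still past 1.5-fold were 15 with single nuclei weighted equally, 19 after thinning to 1000 UMIs, 20 without the 3 fullest nuclei, 21 with libraries merged, 23 with 2 times the doublets removed, and 26 to 30 under the other 11 alternatives. The 9 higher pairs of day 1 became 4 after thinning, 5 without the 3 fullest nuclei and 4 at 2-fold, and the 4 lower pairs 2, 2 and 1, with 1 under stronger doublet removal and 9 with no filter on low sums. The 5 higher pairs of day 3 became 2 after thinning and 8 with no filter, and the 5 lower pairs 1 after thinning and 1 as a mean over nuclei, 8 with equal free RNA subtracted, 3 with libraries merged, 3 without the 3 fullest nuclei, 3 at 2-fold, 9 at 20 UMIs and 11 with no filter. The 4 higher pairs of day 7 became 7 in nuclei of over 2000 UMIs, 2 after thinning, 2 as a mean over nuclei, 2 without the 3 fullest nuclei, 0 at 2-fold, 8 at 20 UMIs and 9 with no filter. The 3 lower pairs of day 7 became 5, 0 and 0 under the first 3 of these, 6 with the ambient profile subtracted in proportion, 0 under stronger doublet removal, 1 without the fullest nucleus, 0 at 2-fold, 6 at 20 UMIs and 6 with no filter. The members above free RNA became 3 for the sham control and 2 for day 1 against droplets of 11 to 100 UMIs, and 3 for day 3 and 2 for day 7 at 2-fold.

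These log2 ratios changed sign. After thinning, Neat1 in glutamatergic neurons at day 3 was -0.050, Rian 0.13 in oligodendrocytes and 1.54 in precursors at day 7, and Snhg11 0.31 in precursors at day 7. With stronger doublet removal, precursors had Rian at 0.39 on day 1 and 0.66 on day 7, and Snhg11 at 0.79 and 0.81. Without the 3 fullest nuclei, Rian in microglia at day 1 was -0.030 and Snhg11 in astrocytes at day 1 was -0.44. Mirg in sham nuclei was -0.79 against the emptier droplets, which held only 32412 UMIs in all. The log2 trimmed-mean factors of subcortical glutamatergic neurons were -0.11 at day 3 and -0.10 at day 7, which raise the ratios there by as much, and those of other classes were nearer 0. The causes were not tested. The microglia-like class without its smaller cluster and the sums without the 3 fullest nuclei were added after the data were seen. Depth limits the precursor-like and microglia-like classes, with sums of 211778 to 409625 UMIs a library.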

Other observations

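The oligodendrocyte-like class joined 3 clusters that differed in Neat1. From the sham control to day 7 the first held 916, 1403, 934 and 1251 CPM, the second 1027, 1514, 1243 and 1804 CPM, and the last 259, 359, 192 and 221 CPM. The last cluster stood below the others in every library.

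Further genes of the related lists were lower on at least 2 days in 1 class. Mir124a-1hg, the host transcript of a neuronal microRNA, had ratios to sham of 0.899, 0.420 and 0.543 in astrocyte-like nuclei. Gm26917 had 0.664, 0.641 and 0.545 in subcortical GABAergic or peptidergic neurons. Cpsf6, a factor of pre-mRNA cleavage, had 0.578, 0.614 and 0.688 in precursor-like nuclei, and Srsf2, a splicing factor, 0.976, 0.659 and 0.618 in subcortical GABAergic or peptidergic neurons.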
